A study of Mus musculus with 8 samples.

Results

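The miR-29 family in mouse skin was followed here through its 3 guide strands, mmu-miR-29a-3p, mmu-miR-29b-3p and mmu-miR-29c-3p (written without the mouse prefix from here on), which were picked by name out of 1881 mouse miRNAs on each array. All 3 were detected on all 8 arrays and were among the 222 miRNAs tested. In NcstnΔKC skin miR-29b-3p was 1.47-fold higher than in normal skin by the main processing. This call was kept in 14 of 28 alternative processings and sets of arrays, and 42.8% of all tested miRNAs passed. miR-29c-3p differed in the other direction without passing the test, and miR-29a-3p was near its normal level. The ratio of miR-29c-3p to miR-29b-3p on the same array was 1.90-fold lower in NcstnΔKC skin. Its values in the groups did not overlap, as held for 34.9% of all pairs of tested miRNAs. Its exact permutation p adjusted over the 3 pairs was 0.0571, which missed the threshold of 0.05. With so few arrays a pair can pass this adjustment only if another pair also reaches the smallest possible p.

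The skin came from male mice with floxed alleles of Ncstn (Ncstn flx/flx) and the transgene Krt14 CreER+/-. Nicastrin, the product of Ncstn, belongs to γ-secretase, the protease that frees the intracellular part of Notch receptors, and Krt14 CreER is a tamoxifen-activated Cre recombinase driven by the promoter of a basal keratinocyte keratin. The NcstnΔKC group (4 samples) was gavaged with tamoxifen at 20 mg/kg per day on 5 days from 8 weeks of age and every 10 days after that, whereas the 4 normal samples came from mice of that genotype gavaged with corn oil, so that tamoxifen and the loss of Ncstn cannot be told apart. Skin, lesional in the protocol's words, was taken at 16 weeks of age, and each RNA was put on its own 1-colour array. Deletion starts in cells in which the Krt14 promoter is active, whereas the RNA came from whole skin. The deletion itself was not checked here, since these arrays carry no probe for Ncstn mRNA. The labels do not say that the samples of a group are separate animals, so the p-values speak of sample-to-sample spread only, and this spread may be technical.

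miR-29 strands are among the best known repressors of extracellular matrix production. Bound to an Argonaute protein, they pair through their seed with mRNAs for fibrillar collagens, fibrillin and elastin and lower their output. TGF-β signalling lowers miR-29 in fibroblasts, and the family is low in fibrotic skin. Matrix mRNAs were not measured by these arrays.

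The mature sequences are shown because the family shares 1 seed and is told apart by few bases elsewhere; they are RefSeq's (GRCm38.p6), written 5′ to 3′ with the seed, bases 2 to 8, in capitals.
miR-29a-3p: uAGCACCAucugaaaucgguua
miR-29b-3p: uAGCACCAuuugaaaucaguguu
miR-29c-3p: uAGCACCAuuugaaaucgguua
Among 1679 mature mouse miRNA names in the RefSeq table, these 3 were the ones that carry the seed AGCACCA. Counted from the 5′ end, miR-29a-3p differs from miR-29c-3p by the single substitution C10U. miR-29b-3p, with 23 bases against 22, differs from miR-29c-3p by A18G, G21U and U22A and by its last base.

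The 3 strands come from 4 hairpins at 2 loci. On the minus strand of chromosome 6 (GRCm38.p6) the hairpins Mir29a, chr6:31062660-31062747, and Mir29b-1, chr6:31063023-31063093, lie 275 bases apart and overlap no other RefSeq gene. On the plus strand of chromosome 1 the hairpins Mir29b-2, chr1:195037040-195037120, and Mir29c, chr1:195037547-195037634, lie 426 bases apart within the span of the gene A330023F24Rik. Both loci give the same mature miR-29b-3p, so the array measured their sum. miR-29a-3p comes from the chromosome 6 locus alone and miR-29c-3p from the chromosome 1 locus alone.

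Each strand was read by 2 probes of different length, each printed on 15 spots per array. The probe sequences are shown because they decide how well the members can be told apart. Capitals mark the bases that are not the exact complement of the most similar other member.
miR-29a-3p, 19 bases: taaccgatttcaGatggtg
miR-29a-3p, 20 bases: taaccgatttcaGatggtgc
miR-29b-3p, 20 bases: AACacTgatttcaaatggtg
miR-29b-3p, 21 bases: AACacTgatttcaaatggtgc
miR-29c-3p, 21 bases: taaccgatttcaAatggtgct
miR-29c-3p, 22 bases: taaccgatttcaAatggtgcta
The miR-29a-3p and miR-29c-3p probes are separated by 1 base, whereas the miR-29b-3p probes have 4 mismatches with miR-29c-3p and 5 with miR-29a-3p. How much of the signal of miR-29a-3p and miR-29c-3p came from the other strand is therefore uncertain and was not tested. All 6 probes were detected on all 8 arrays.

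Intensities are given as scaled log2 levels, which are log2 of a miRNA's summed probe intensity over the 75th percentile of the 301 probes detected on every array. Differences are NcstnΔKC minus normal, tested with limma over the 222 miRNAs with Benjamini-Hochberg adjustment and a threshold of 0.05. By this test 95 miRNAs passed (42.8%), 33 higher (14.9%) and 62 lower (27.9%), around a median log2 difference of -0.23. The groups did not overlap for 36.9% of the tested miRNAs (13.5% with NcstnΔKC higher, 23.4% with it lower). Of the 3 miR-29 strands 1 passed, as higher, and 0 passed as lower. Beside this stand the 42.8% of all tested miRNAs that passed in either direction and the 14.9% that passed as higher. No conclusion is drawn from 1 of 3 strands. Probe brightness depends on sequence, so the level of one strand is not set against that of another.

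miR-29b-3p was the member that passed. Its scaled log2 level was -0.04, 0.01, 0.55 and 0.26 on the normal arrays 1 to 4 and 0.92, 0.73, 0.66 and 0.67 on the NcstnΔKC arrays 1 to 4. Every NcstnΔKC array lay above every normal array, with normal 3 the nearest, and the normal arrays spread more widely. The group means were 0.19 ± 0.27 and 0.75 ± 0.12 (SD, n = 4 each), a log2 difference of 0.55 ± 0.17 (SE, limma adjusted p = 0.0291; 95% interval 0.17 to 0.93). Relative to the median of the tested miRNAs the difference was 0.79. Before scaling, the intensities were 1460 ± 280 on normal and 1777 ± 285 on NcstnΔKC arrays (SD, n = 4 each), and these overlapped. The call was narrow. It was lost when any array other than normal 3 was left out, with limma adjusted p from 0.0523 to 0.0668, and also with no scaling (log2 difference 0.29, adjusted p = 0.21) and spike-in scaling (0.24, 0.381). With the series matrix values the authors deposited it was kept (0.74, limma adjusted p = 0.0393), as it was with quantile normalization (0.59, 0.0407).

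miR-29c-3p had levels of 0.49, 0.86, 1.11 and 0.82 on normal arrays 1 to 4 and 0.83, 0.36, 0.30 and 0.28 on NcstnΔKC arrays 1 to 4. The NcstnΔKC arrays 2, 3 and 4 lay below all normal arrays, and NcstnΔKC 1 lay among the normal ones. With means of 0.82 ± 0.25 and 0.44 ± 0.26 (SD, n = 4 each), its log2 difference was -0.38 ± 0.19 (SE, limma adjusted p = 0.138; 95% interval -0.81 to 0.05), which is -0.14 relative to the median of the tested miRNAs. Without NcstnΔKC 1 it passed as lower (-0.51, limma adjusted p = 0.0426), and likewise when left unscaled (-0.64, 0.0343) or scaled to the spike-in controls (-0.69, 0.036). With the percentile taken over all probes its sign turned (0.49, adjusted p = 0.72).

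miR-29a-3p, from the same locus as Mir29b-1, showed no difference beyond the spread. Its levels were 3.09, 3.02, 3.19 and 3.28 on normal arrays 1 to 4 and 3.39, 3.40, 3.05 and 3.0 on NcstnΔKC arrays 1 to 4. NcstnΔKC 1 and 2 lay above all normal arrays, and NcstnΔKC 3 and 4 lay within or below them. The log2 difference was 0.07 ± 0.15 (SE, n = 4 each, limma adjusted p = 0.717), with a 95% interval from -0.28 to 0.41. Its sign turned to -0.19 with no scaling and to -0.25 with spike-in scaling, neither past the threshold.

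**Figure D1:**
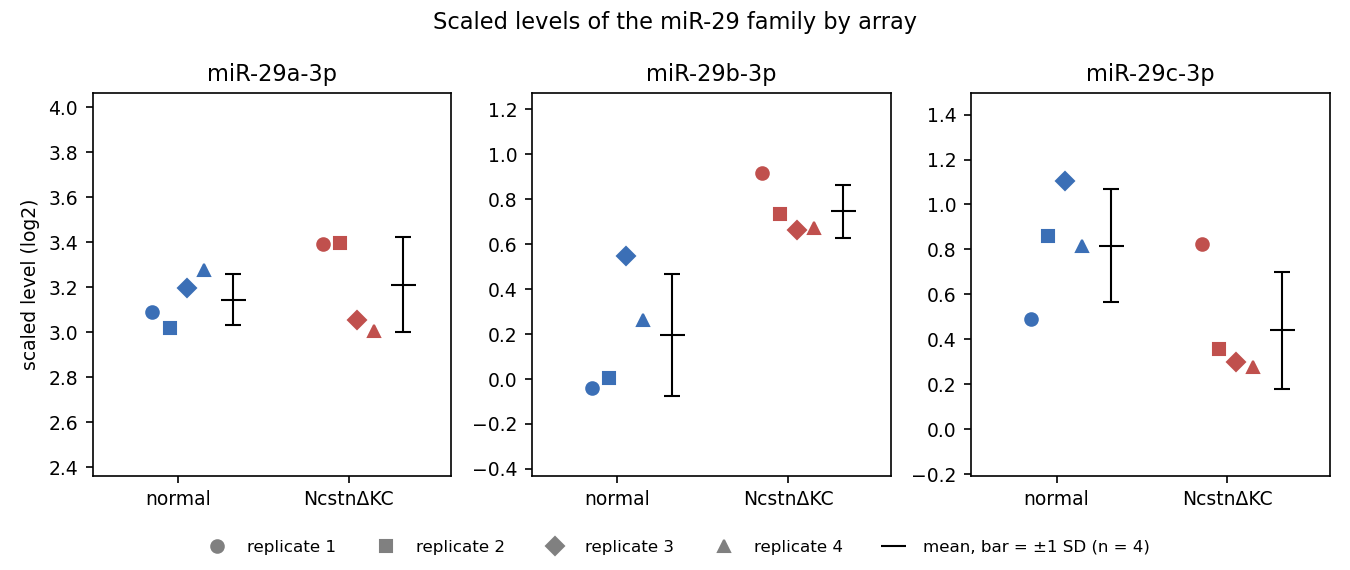
Scaled log2 levels (y axis) of the 3 miR-29 guide strands on the 4 normal (blue) and 4 NcstnΔKC (red) arrays, each symbol 1 array, with mean and SD beside them; the y axes have the same length but different starts. For miR-29b-3p the NcstnΔKC arrays lie at 0.66 and above and the normal arrays at 0.55 and below, whereas the groups overlap for the other strands.

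Probes of a strand gave like differences. The shorter and longer miR-29b-3p probes differed by 0.55 and 0.55 on the log2 scale, those of miR-29c-3p by -0.38 and -0.38, and those of miR-29a-3p by 0.10 and 0.05. Both miR-29b-3p probes had non-overlapping groups, although their brightness was far apart, at 151 and 1309 units on average on normal arrays. Within an array the spots of these 6 probes varied by 4.22% to 10.1% (median coefficient of variation over the arrays), the dimmest probe most. Probes of one strand share its RNA and are not replicates.

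**Figure D2:**
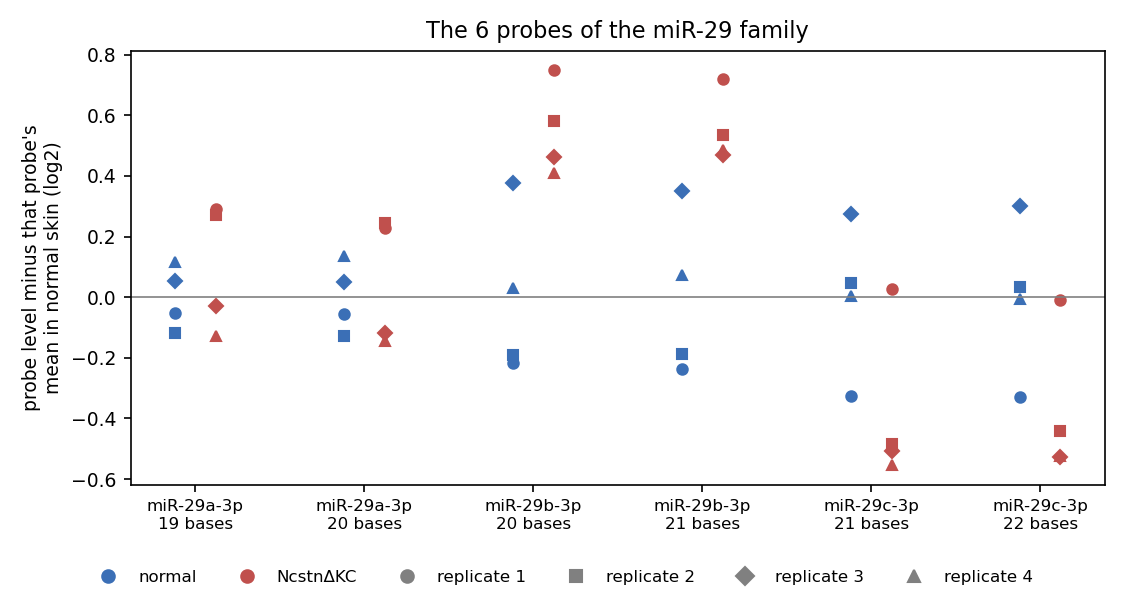
Level of each of the 6 probes on each array minus that probe's mean over the normal arrays (log2, y axis), with normal arrays in blue and NcstnΔKC arrays in red. The paired probes of each strand repeat the same order of arrays closely, and both miR-29b-3p probes show all NcstnΔKC arrays above all normal ones.

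Differences between members on the same array do not depend on a scale factor of the array. The miR-29c-3p level minus the miR-29b-3p level was 0.53, 0.85, 0.56 and 0.55 on normal arrays 1 to 4 and -0.09, -0.38, -0.36 and -0.39 on NcstnΔKC arrays 1 to 4. Every normal value lay above every NcstnΔKC value, with NcstnΔKC 1 the nearest. The position of 0 on this scale is set by the brightness of the probes and has no meaning of its own. The means were 0.62 ± 0.15 and -0.31 ± 0.14 (SD, n = 4 each), and they differed by -0.93 ± 0.11 (SE). An exact two-sided permutation test over the 70 labelings gave p = 0.0286, the smallest that 4 against 4 arrays allow, and an adjusted p of 0.0571 over the 3 pairs of members. The 3 pairs thus missed the threshold after adjustment. A pair at the smallest p passes only if another pair also reaches it, so this pair could not pass by its own separation. Such a separation was common, as 34.9% of all 24531 pairs of tested miRNAs had groups that did not overlap, and 27.0% did so by at least as much.

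The other pairs moved by about equal amounts in opposite directions. For miR-29b-3p minus miR-29a-3p the mean was -2.95 ± 0.21 on normal and -2.47 ± 0.14 on NcstnΔKC arrays, a difference of 0.49 ± 0.13 (SE, n = 4 each, exact permutation p = 0.0571, adjusted p = 0.0571). Its groups overlapped through normal 3 at -2.65 and NcstnΔKC 2 at -2.66. For miR-29c-3p minus miR-29a-3p the mean went from -2.33 ± 0.24 to -2.77 ± 0.20, a difference of -0.44 ± 0.16 (SE, n = 4 each, exact permutation p = 0.0571, adjusted p = 0.0571). Its groups overlapped through normal 1 at -2.60 and NcstnΔKC 1 at -2.57. Over the alternatives that give a value, the difference of miR-29c-3p minus miR-29b-3p ran from -1.11 to -0.83, and its groups did not overlap in 22 of the 22 for which this was counted.

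**Figure D3:**
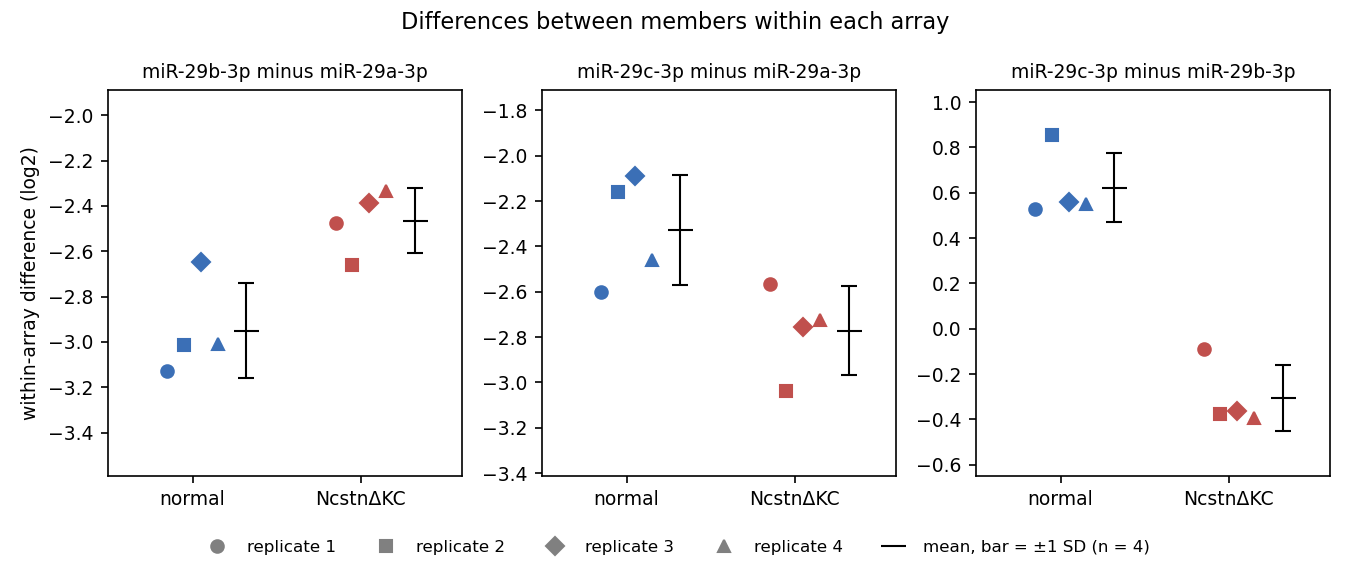
Within-array log2 differences (y axis) between members for the 4 normal (blue) and 4 NcstnΔKC (red) arrays, with mean and SD; each panel is 1 pair and all y axes have the same length. The values of miR-29c-3p minus miR-29b-3p lie at 0.53 and above on normal arrays and at -0.09 and below on NcstnΔKC arrays.

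Across the 8 arrays miR-29b-3p and miR-29c-3p had a Pearson r of -0.20, but 0.81 once each group's mean was taken off, as a description over 8 arrays that share a scaling. Within a group the arrays high in one tended to be high in the other, as normal 3 and NcstnΔKC 1 were in both. The corresponding values were 0.49 and 0.57 for miR-29a-3p with miR-29b-3p, and 0.25 and 0.53 for miR-29a-3p with miR-29c-3p.

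Striated muscle miRNAs, typical of skeletal and heart muscle, varied over the arrays together with miR-29c-3p. The mean scaled log2 level of 5 of 5 listed ones (miR-1a-3p, miR-133a-3p, miR-133b-3p, miR-133a-5p and miR-206-3p) was 0.61, 2.13, 3.09 and 2.66 on normal arrays 1 to 4 and 1.86, -0.67, 0.39 and 0.42 on NcstnΔKC arrays 1 to 4. Of the 5, 0 were higher, 4 did not pass and 1 was lower, miR-1a-3p (log2 difference -1.83, limma adjusted p = 0.0451), beside 14.9% higher and 27.9% lower over all tested miRNAs. The median log2 difference of the list was -1.73. In the muscle mean, normal 1 was the lowest normal array and NcstnΔKC 1 the highest NcstnΔKC array, as they were for miR-29c-3p. Pearson r of that mean with miR-29c-3p was 0.93 (0.87 with group means taken off), against -0.25 (0.75) for miR-29b-3p, 0.03 (0.24) for miR-29a-3p and 0.73 (0.45) for miR-29c-3p minus miR-29b-3p, all over 8 arrays. Leaving out normal 1 and NcstnΔKC 1 was an alternative chosen after seeing the data. With it miR-29c-3p passed as lower (log2 difference -0.61, limma adjusted p = 0.0152) and miR-29b-3p did not pass (0.42, 0.0969). The difference of miR-29c-3p minus miR-29b-3p was then -1.03. These arrays were the lowest normal and the highest NcstnΔKC array for both strands. Leaving them out therefore had to widen the fall of miR-29c-3p and shrink the rise of miR-29b-3p, and no conclusion is drawn from it. The part of muscle in these values was not tested, and fewer cells of a type and less RNA per cell cannot be told apart in whole skin.

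**Figure D4:**
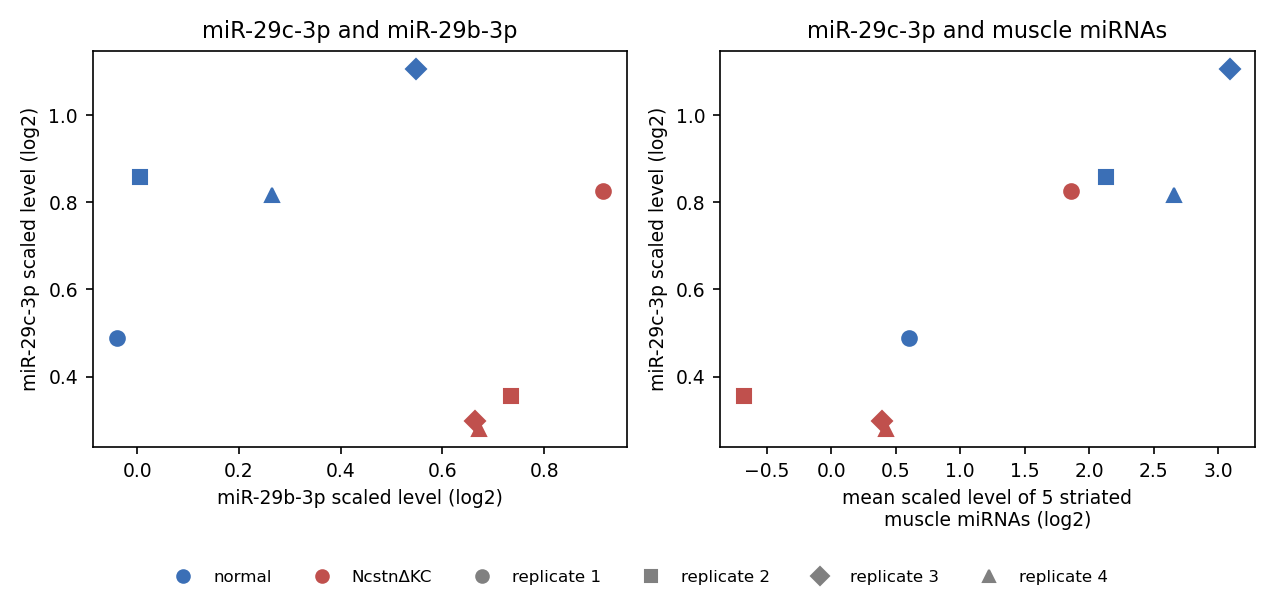
Each symbol is 1 array (blue normal, red NcstnΔKC); the left panel sets the miR-29c-3p level against the miR-29b-3p level and the right panel sets it against the mean level of 5 striated muscle miRNAs, all scaled log2. In the left panel the normal arrays, at 0.55 and below on the x axis, lie to the left of the NcstnΔKC arrays, and in the right panel the level of miR-29c-3p tends to be higher where the muscle mean is higher in both groups.

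Other cell type lists are to be read beside the 14.9% of all tested miRNAs that were higher and the 27.9% that were lower. Of 6 tested fibroblast and smooth muscle miRNAs 3 were higher (miR-214-3p, miR-199a-5p and miR-199a-3p). From the same list 2 were lower, miR-152-3p (-0.58, limma adjusted p = 0.034) and miR-145a-5p. Of 7 epithelial ones 4 were lower (miR-203-3p, miR-200a-3p, miR-200b-3p and miR-429-3p), while miR-205-5p (0.47), miR-141-3p (0.30) and miR-200c-3p (0.12) had positive log2 differences that did not pass. Of 5 white blood cell ones 3 were higher, namely miR-511-3p (log2 difference 2.35), miR-142a-3p (1.52) and miR-155-5p (1.26, detected on 3 of 4 normal arrays). Of 2 red blood cell ones 1 was lower, miR-486a-5p (-1.91, limma adjusted p = 0.0229), and miR-451a did not pass (0.53). miR-486a-5p was detected on 1 NcstnΔKC array and was tested only through the normal group. The endothelial miR-126a-3p differed by 0.15 (limma adjusted p = 0.392). The epithelial list mean ran from 0.87 to 1.17 on normal and from 0.63 to 1.0 on NcstnΔKC arrays, and the white blood cell mean from -2.72 to -2.25 and from -1.56 to -0.56. Their part in the miR-29 values was not tested. Detection ranged from 198 to 273 miRNAs per array, with 252 ± 17.2 on normal and 217 ± 17.2 on NcstnΔKC arrays (SD, n = 4 each; p = 0.0571 by an exact permutation test, two-sided). The scaling percentile was 1259 ± 44.6 on normal and 1053 ± 98.3 on NcstnΔKC arrays, without overlap (SD, n = 4 each; p = 0.0286 by the same exact permutation test). Their part in the miR-29 values was not tested beyond the scalings given above. All arrays lay on 1 slide with the groups in different rows, and an effect of the row cannot be told apart from that of the group.

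The passenger strands, the other arms of the same hairpins, were at or below background. None of the 4 was detected on all arrays of a group, so 0 of 4 were tested. miR-29a-5p and miR-29b-2-5p were detected on 0 of 8 arrays, miR-29b-1-5p on NcstnΔKC 1 alone, and miR-29c-5p on normal 3 alone. These are the arrays with the highest miR-29b-3p level in NcstnΔKC skin and the highest miR-29c-3p level in normal skin. In the authors' deposited series matrix miR-29b-1-5p was 3.47, 3.47, 3.53 and 3.49 on normal arrays 1 to 4 and 3.73, 3.63, 3.64 and 3.61 on NcstnΔKC arrays 1 to 4. Its groups did not overlap there, with a log2 difference of 0.16. Those of miR-29a-5p, detected on 0 arrays, did not overlap either (0.08). In these values NcstnΔKC lay above normal without overlap for 8.40% of all 1881 miRNAs. With the matrix values and no filter, miR-29b-1-5p passed (limma adjusted p = 0.031) and miR-29a-5p did not (0.0643). In the scaled levels without a filter, miR-29b-1-5p did not pass (log2 difference 0.57, limma adjusted p = 0.257), although its groups did not overlap there either. In the series matrix miR-29c-5p was 3.70, 3.86, 4.44 and 4.08 on normal arrays 1 to 4 and 3.85, 3.63, 3.67 and 3.63 on NcstnΔKC arrays 1 to 4, and the groups overlapped. The matrix values of miR-29b-1-5p and miR-29c-5p lie near the column medians of 3.24 to 3.25, where signal and background are hard to separate.

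Other miRNAs tied to matrix and fibrosis were counted from lists that were not chosen by direction here, though earlier results of these data were known. Of 18 matrix-restraining miRNAs, all tested, 3 were higher, 5 lower and 10 did not pass, with a median log2 difference of -0.24, beside -0.23, 14.9% higher and 27.9% lower over all tested miRNAs. The list was thus close to the background. The 5 falls were miR-429-3p (-0.81, limma adjusted p = 0.00466), miR-200a-3p (-0.74, 0.012), miR-200b-3p (-0.58, 0.0191), miR-30a-5p (-0.78, 0.0137) and miR-30c-5p (-0.57, 0.0361), the miR-200 members being repressors of the epithelial-to-mesenchymal factors Zeb1 and Zeb2 and the same 3 miRNAs counted among the epithelial falls. The 3 rises were miR-18a-5p, miR-19a-3p and miR-19b-3p, encoded in clusters of the miR-17 family and known for their part in cell proliferation, with miR-19b-3p at 1.03 (limma adjusted p = 0.00307). miR-18a-5p was detected on 1 and miR-19a-3p on 2 of the 4 normal arrays, so both were tested only through the group in which they are high. With detection required on all 8 arrays the number higher was 1. The number lower was 0 where all probes set the percentile, 1 with the replicate number as a block, 9 with no scaling and 10 with array weights.

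Of 10 profibrotic miRNAs 8 were tested, 5 of them higher, 1 lower and 2 not past the threshold. Their median log2 difference was 0.87, beside -0.23, 14.9% higher and 27.9% lower over all tested miRNAs. The list is not separate from the cell type lists. miR-214-3p, miR-199a-5p and miR-199a-3p are the 3 rises of the fibroblast and smooth muscle list, and miR-145a-5p is among its falls. miR-155-5p is among the white blood cell rises. miR-21a-5p, which rises in activated fibroblasts, was 5.70-fold higher (log2 difference 2.51 ± 0.23, limma adjusted p = 0.000477). The mesenchymal miR-214-3p was 2.31-fold higher (limma adjusted p = 0.00404), miR-199a-5p 2.09-fold higher (0.012) and miR-199a-3p, which shares hairpins with miR-199a-5p, 1.61-fold higher (0.0227). miR-155-5p of activated immune cells was higher too (log2 difference 1.26, limma adjusted p = 0.00402), but it was detected on 3 of the 4 normal arrays and was tested only through the NcstnΔKC group. With detection required on all 8 arrays 4 of this list were higher. The fall was in the smooth muscle miRNA miR-145a-5p (-1.14, limma adjusted p = 0.045), which was detected on 1 NcstnΔKC array and tested only through the normal group. In 20 of 28 alternatives no miRNA of this list was lower. The 2 of this list that were not past the threshold, miR-34a-5p (-0.25) and miR-27a-3p (0.03), had smaller absolute differences than miR-29b-3p. Its other tested miRNAs had larger ones. Among all 222 tested miRNAs, 111 had a larger absolute difference than miR-29b-3p, which places that strand near the middle.

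The miRNAs most like the mean of the 3 strands over the 8 arrays were miR-126a-3p of endothelial cells (Pearson r = 0.85), miR-3963 (0.80), miR-30b-5p (0.77), miR-350-3p (0.66) and miR-185-5p (0.63). None of these 5 passed the test between the groups. Taken singly, and looked up after the values were seen, the strands had different neighbours. miR-29c-3p was closest to miR-486a-5p (r = 0.96), miR-101a-3p (0.95) and miR-133b-3p (0.94), miR-29b-3p to miR-7014-5p (0.85) and miR-99b-5p (0.84) and then miR-126a-3p (0.82), and miR-29a-3p to miR-30b-5p (0.78) and miR-27a-3p (0.72). With group means taken off, r for miR-29b-3p was 0.35 with miR-7014-5p, which was detected on 0 of 4 normal arrays, 0.30 with miR-99b-5p and 0.81 with miR-126a-3p. For miR-29c-3p it was 0.95, 0.91 and 0.89 with its 3 neighbours, and for miR-29a-3p 0.77 and 0.72. These are descriptions over 8 arrays, which share the group difference and the scaling.

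**Figure D5:**
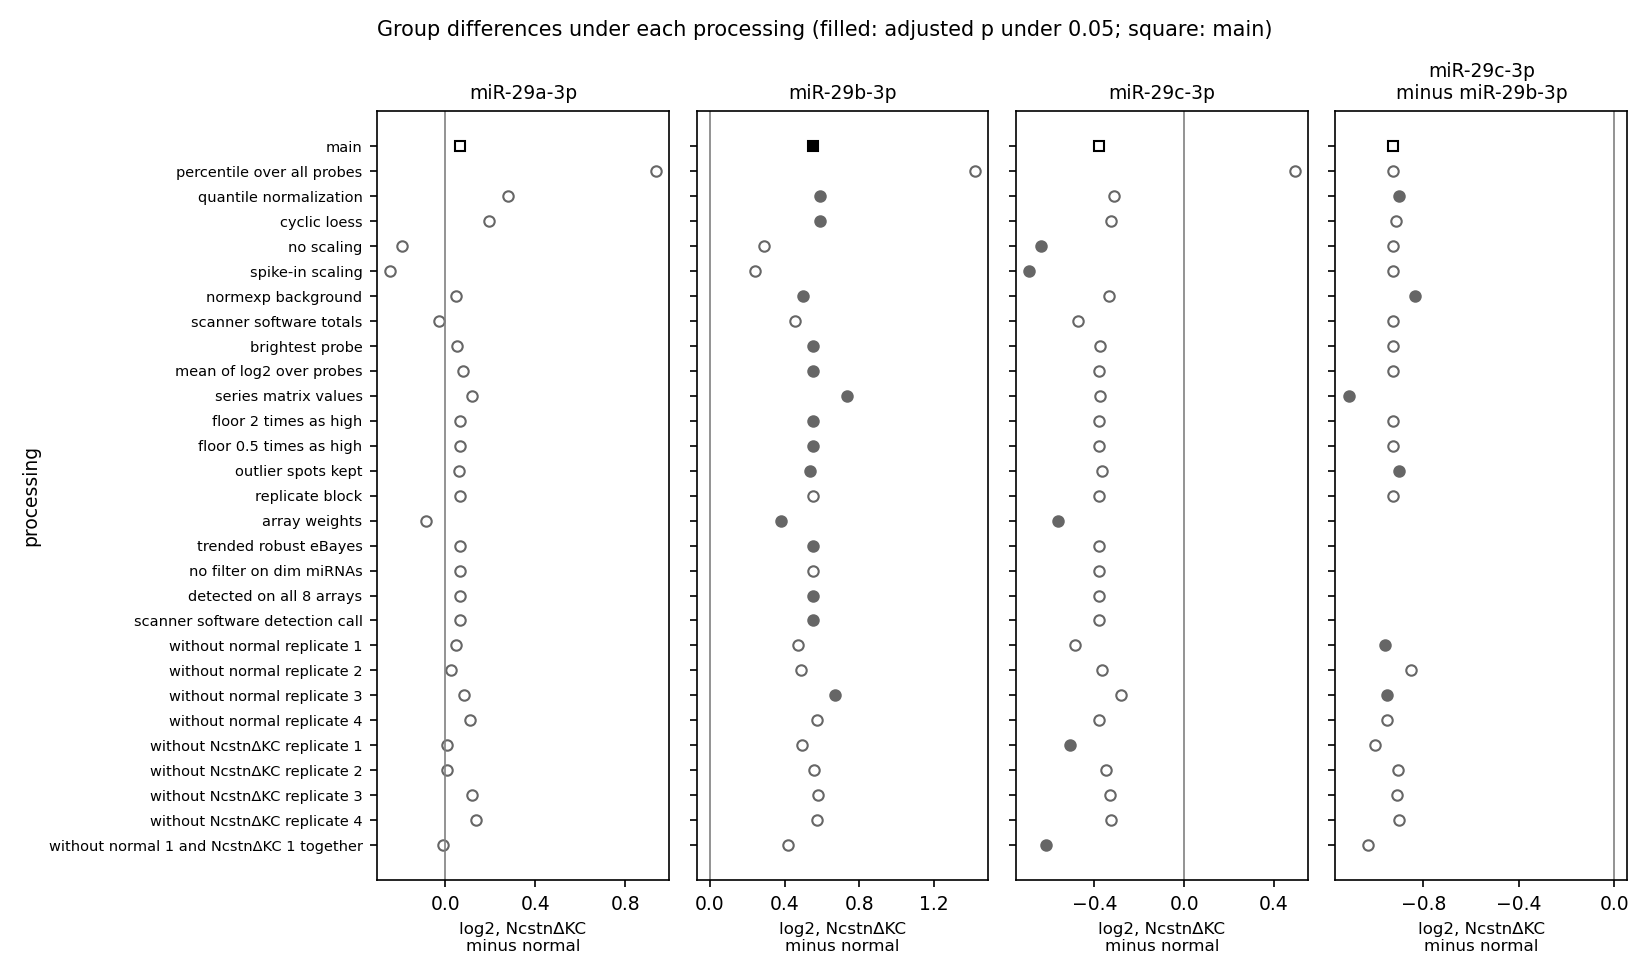
Group differences (x axis, log2, NcstnΔKC minus normal) under each processing (rows) for the 3 strands and for miR-29c-3p minus miR-29b-3p; filled symbols have an adjusted p under 0.05 squares mark the processing used in the text, and settings that act only on the fit across miRNAs have no symbol in the last panel. The single strands shift with the scaling, from -0.25 to 0.94 for miR-29a-3p, whereas miR-29c-3p minus miR-29b-3p stays between -1.11 and -0.83.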

How the data were processed

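Skin RNA of 8 samples was read on 8 1-colour Agilent miRNA arrays. Per the file headers, the authors' Feature Extraction software reported spot brightness as raw, local background and processed intensity, the processed one having a fitted background surface taken off and no normalization between arrays. The deposited series matrix holds log2 values whose normalization and centring are not given in the sources used here (column medians 3.24 to 3.25).

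Control spots and outlier spots (2223 to 2940 per array) were left out, and 0 spots were saturated. Detection of a probe required 50% or more of its spots to be well above background. Probe means were scaled to the 75th percentile of the 301 probes detected on all arrays, then added up for each miRNA. A floor of 0.0318 was applied, which touched 18 of the 222 tested miRNAs and 0 miR-29 guide strands, and log2 was taken. The 222 miRNAs detected on all 4 arrays of a group were tested with limma 3.58.1 (R 4.3.3) on group alone. Member differences were tested by exact permutation. The number of arrays limits the precision. Named miRNAs are the members, their passenger strands, up to 4 per list by p and the 5 nearest by correlation, with other calls named where a count was 5 or fewer. Members and lists were chosen with earlier results of these data known. The fits were tested on simulated data.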

Additional observations from a re-analysis of the deposited data

Results flagged for a closer look

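In each group the highest or lowest of the 4 arrays was set against the other 3. This was done for the 3 strands and the 3 differences between them, 12 sets of values in all. Chance alone would single out about 5% of the sets. They are not independent, since the differences are built from the levels of the strands. An array stood apart in 3 of the 12, with the gap to its neighbour taking more than 0.829 of the group's range. In NcstnΔKC skin array 1 was high in miR-29c-3p (0.858 of the range) and in miR-29c-3p minus miR-29b-3p (0.908), which contains that same level. In normal skin array 2 was high in miR-29c-3p minus miR-29b-3p (0.911). NcstnΔKC 1 is also the NcstnΔKC array with the highest striated muscle miRNAs, at a mean scaled log2 level of 1.86 against -0.67 to 0.42 on the other NcstnΔKC arrays, and their part in the gap was not tested.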

How the results depend on the processing

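Each strand was recomputed under 28 alternatives. Among them, leaving out normal 1 and NcstnΔKC 1 together was chosen after seeing the data, and its calls follow from that choice. The direction of miR-29b-3p was kept in all 28 and its call in 14. The call was lost with the percentile over all probes (1.42), no scaling (0.29), spike-in scaling (0.24), the scanner software's totals (0.46), no filter on dim miRNAs (0.55) and without normal 1 and NcstnΔKC 1 together (0.42); leaving out 1 array gave 0.47 to 0.67. miR-29c-3p changed sign (0.49) where all probes set the percentile and passed with no scaling (-0.64), spike-in scaling (-0.69), array weights (-0.56) and without normal 1 and NcstnΔKC 1 together (-0.61); leaving out 1 array gave -0.51 to -0.28. miR-29a-3p turned to -0.19 with no scaling, -0.25 with spike-in scaling, -0.027 with the software's totals, -0.087 with array weights and -0.012 without normal 1 and NcstnΔKC 1 together, and passed in 0 of 28. The cause was not tested. Strands past the threshold numbered 0 with the percentile over all probes, the software's totals, the replicate block and no filter, 2 with array weights, and 0 to 1 without 1 array; the 1 with no scaling or spike-in scaling was miR-29c-3p. Of all tested miRNAs 95 passed, against 12 with the percentile over all probes (12 higher, 0 lower), 52 with the software's totals, 61 with detection on all arrays, 19 with no filter and 58 to 96 without 1 array. The share of calls that were higher was 34.7%, and 52.9% with quantile normalization, 57.7% with cyclic loess, 56.2% with normexp, 36 of 72 in the series matrix, 19.2% unscaled and 16.5% scaled to the spike-in controls. Over the scalings, the median log2 difference ran from -0.55 (spike-in) to 0.64 (percentile over all probes). In the matrix and fibrosis lists 14 passed, against 4 with the percentile over all probes, 8 with the block, 1 with no filter and 9 to 17 without 1 array.

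After adjustment over the 3 pairs, miR-29c-3p minus miR-29b-3p passed with quantile normalization (-0.90), normexp (-0.83), the series matrix (-1.11) and outlier spots kept (-0.90), with -1.0 to -0.85 without 1 array, passing without normal 1 or normal 3 (exact permutation adjusted p = 0.0429 each). In the main run the p of this pair was already the smallest possible. A pair passes only where another pair also reaches the smallest p, so these passes depend on the other pairs. miR-29b-3p minus miR-29a-3p passed with normexp (0.45), the series matrix (0.62) and outlier spots kept (0.48), with 0.43 to 0.59 without 1 array, passing without normal 3 (0.0429). miR-29c-3p minus miR-29a-3p passed with quantile normalization (-0.59) and the series matrix (-0.49), with -0.53 to -0.35 without 1 array, passing without normal 1 (0.0429).

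With the replicate number as a block, miR-29b-3p had a log2 difference of 0.55 (limma adjusted p = 0.0788) and 71 miRNAs passed in all. Arrays that share a number lay in the same column of the slide. Their deviations had r = -0.44, 0.20, -0.26 and -0.23 for numbers 1 to 4. So few arrays cannot show whether the numbers pair the samples.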

Other observations

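In the scanner software's own total per miRNA, passenger strands of this family carried the total of a guide strand. On 7 of 8 arrays its total for miR-29b-1-5p equalled the total of miR-29a-3p plus the signal of its own brightest probe, to within 0.0045 units. On normal 2, for example, the total was 2094, of which 2090 was that of miR-29a-3p and 3.58 the brightest probe of miR-29b-1-5p. The same held for miR-29c-5p and miR-29c-3p on normal 2, 3 and 4, with 475 on normal 2 made of 467 and 8.17. On the arrays where the software called these strands undetected their totals were 1.98 to 2.91 units. A comparison of these totals would thus set miR-29c-5p at 475 to 575 units on normal 2 to 4 against 2.76 to 2.91 on the NcstnΔKC arrays. Over all miRNAs, 66 to 78 of the 244 to 311 that the software called detected on an array had a total above the sum of their own probes by more than 1% plus 0.5 units. For the 3 guide strands the total matched that sum to within 0.01 units. These totals enter only the alternative named after them, where the count over all tested miRNAs includes totals of this kind. Its scaling percentile is also taken over such totals, so the miR-29 strands may be affected through their scale. Their log2 differences there were -0.027 (miR-29a-3p), 0.46 (miR-29b-3p) and -0.47 (miR-29c-3p), against 0.07, 0.55 and -0.38 in the main processing. The part of these totals in that shift was not tested.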
